A study of Mus musculus with 4 samples.

Results

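RNA of mouse cortical precursor cells given both Nurr1 and Foxa2 was set against that of the same kind of cells given empty virus, across functional groups of genes. The comparison rests on 2 bead arrays, 1 for Nurr1+Foxa2 and 1 for Control. Every probe with a gene symbol in the platform annotation and a detection p-value below 0.01 on at least 1 of these arrays was taken. These were 11065 of 12484 probes with a symbol, out of 25697 on the array, and they stood for 8020 of 8980 named genes. Here a gene is called measured when it passed this filter. The detection p-value is the scanner's measure of how far a probe's signal lies above that of its negative control beads.

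The series holds 4 arrays, with 1 for each of Nurr1+Foxa2, Nurr1, Foxa2 and Control. All cells were neural precursors from the cortex of ICR mouse embryos at embryonic day 12, grown in serum-free medium with the growth factors bFGF and EGF. Each culture stood in supernatant of retrovirus for 2 hours, and both growth factors were then taken away for 2 days. The virus was built on the vector pCL and carried Nurr1 and Foxa2 cDNA for the first group, 1 of these cDNAs for each single-factor group, and no cDNA for Control. A retrovirus enters only part of a culture, and the arrays average over cells with and without virus. With 1 array per group there is no replicate check, no test was made, and each difference describes these arrays.

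Nurr1 is an orphan nuclear receptor, the product of Nr4a2, and is needed for midbrain dopamine neurons to form. Foxa2 is a forkhead protein that acts in the floor plate, the ventral midline strip of the neural tube from which those neurons arise. In a dopamine neuron, tyrosine hydroxylase (Th) makes L-DOPA from tyrosine with the cofactor tetrahydrobiopterin, aromatic L-amino acid decarboxylase (Ddc) turns it into dopamine, and the transporter of Slc6a3 takes released dopamine back into the cell. Cortical precursors do not normally take this path and give neurons, astrocytes and oligodendrocytes.

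Marker genes were read first. Of 9 markers of cortical precursors, 5 had a named probe and all of these were detected, with summed signals of 21079 with both factors and 19717 with Control. The largest part of each sum is Vim. Of the 5, 2 (Sox2 and Fabp7) were at least 2-fold lower with both factors and none higher. Sox2 was short of 2-fold with the mean of its detected probes. The neuronal markers Dcx, Map2, Stmn2, Elavl3 and Rbfox3 were also detected on both arrays. Aif1 of microglia, Kdr of endothelial cells, and Col1a1 and Lum of fibroblasts were not detected on either array, while a further fibroblast marker, Dcn, had a signal of 206 with both factors and 113 with Control. The midbrain markers En1 and Lmx1b were not detected either. Markers of the oligodendrocyte lineage were detected for 7 of 7 genes with a named probe, and their summed signal was 33739.7 with both factors and 79556 with Control. In bulk RNA of this kind, fewer cells of a type and less RNA per cell cannot be told apart. Nr4a2 had a signal of 1620.4 with both factors and 167 with Control. The Foxa2 transcript has no named probe here and was not analysed.

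The promoters of 6 genes are shown because their genes stood among the largest differences and carry the dopamine, pigment and vesicle results below. Each window runs from 250 bases before to 50 bases after the annotated start in RefSeq, build GRCm38.p6, written 5′ to 3′ on the gene's own strand. The sites searched, on both strands, were the nuclear receptor site AAAGGTCA, which monomeric Nurr1 binds, the forkhead core TGTTTAC or TGTTTGC, and the cyclic AMP response element TGACGTCA. Capitals mark a match to one of these, and no 2 matches overlapped. Ddc and Dnajc6 have 2 windows each in the table. The window with more matches is shown, or the first where the numbers were equal, so the choice favoured finding a match.
Th, chr7:142899946-142900245, minus strand: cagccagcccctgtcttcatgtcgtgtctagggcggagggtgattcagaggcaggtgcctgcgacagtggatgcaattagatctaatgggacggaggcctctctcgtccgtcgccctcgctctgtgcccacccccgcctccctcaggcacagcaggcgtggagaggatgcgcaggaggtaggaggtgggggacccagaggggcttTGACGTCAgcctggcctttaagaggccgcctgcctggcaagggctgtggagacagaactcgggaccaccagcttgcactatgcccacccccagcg
Ddc, chr11:11898095-11898394, minus strand: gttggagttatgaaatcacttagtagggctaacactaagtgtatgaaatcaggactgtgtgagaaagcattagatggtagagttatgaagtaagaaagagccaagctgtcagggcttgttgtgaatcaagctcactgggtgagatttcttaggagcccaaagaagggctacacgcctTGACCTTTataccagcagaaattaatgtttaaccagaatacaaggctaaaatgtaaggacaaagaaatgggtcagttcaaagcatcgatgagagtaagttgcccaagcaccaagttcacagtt
Gch1, chr14:47189364-47189663, minus strand: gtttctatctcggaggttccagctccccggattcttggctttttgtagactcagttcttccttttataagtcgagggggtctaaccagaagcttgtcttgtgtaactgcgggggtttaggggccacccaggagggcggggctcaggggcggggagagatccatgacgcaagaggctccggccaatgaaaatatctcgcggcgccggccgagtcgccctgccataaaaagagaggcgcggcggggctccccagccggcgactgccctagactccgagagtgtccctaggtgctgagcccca
Slc6a3, chr13:73536497-73536796, plus strand: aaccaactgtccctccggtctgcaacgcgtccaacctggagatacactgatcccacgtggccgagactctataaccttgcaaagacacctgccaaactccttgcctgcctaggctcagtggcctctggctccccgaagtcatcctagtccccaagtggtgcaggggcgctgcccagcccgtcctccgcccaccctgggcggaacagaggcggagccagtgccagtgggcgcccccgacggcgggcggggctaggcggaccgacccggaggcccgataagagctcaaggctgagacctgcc
Tyrp1, chr4:80833963-80834262, plus strand: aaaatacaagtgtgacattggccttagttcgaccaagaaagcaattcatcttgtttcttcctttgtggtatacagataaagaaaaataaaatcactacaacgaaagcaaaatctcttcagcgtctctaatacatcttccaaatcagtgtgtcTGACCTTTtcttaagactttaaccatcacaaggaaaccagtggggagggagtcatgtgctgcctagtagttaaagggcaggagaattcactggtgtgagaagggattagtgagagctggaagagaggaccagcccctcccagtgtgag
Dnajc6, chr4:101507726-101508025, plus strand: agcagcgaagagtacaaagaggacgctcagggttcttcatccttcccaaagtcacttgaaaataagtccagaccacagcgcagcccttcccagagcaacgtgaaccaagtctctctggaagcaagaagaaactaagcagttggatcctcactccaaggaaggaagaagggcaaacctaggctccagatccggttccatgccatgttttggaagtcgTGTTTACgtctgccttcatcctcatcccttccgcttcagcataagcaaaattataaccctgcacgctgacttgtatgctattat
Th held the cyclic AMP element at -45 to -38, relative to the start. Ddc at -73 to -66 and Tyrp1 at -98 to -91 held the nuclear receptor site on the opposite strand, where it reads TGACCTTT. Dnajc6 held a forkhead core at -34 to -28. The windows of Gch1 and Slc6a3 held none of these letters. Over all promoters of this length in the table, 1.51% held the nuclear receptor site, 8.48% a forkhead core and 1.79% the cyclic AMP element. Among promoters of genes at least 2-fold higher with both factors the shares were 0.657%, 5.91% and 2.96%, beside 0.793%, 6.05% and 3.23% among promoters of all measured genes. A match is a description of letters, not a site shown to be bound.

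With both factors 566 of 8020 measured genes (7.06%) were at least 2-fold higher than with Control, and 381 (4.75%) were at least 2-fold lower. Large differences lay mostly on the higher side. At least 4-fold differences numbered 172 higher and 81 lower genes, at least 8-fold differences 65 and 7, and at least 16-fold differences 34 and 0. Most genes differed little, with 5870 genes (73.2%) within 1.5-fold, and the median log2 difference over all measured genes was -0.084. Folds come from background-corrected and normalized values, whereas signals are the deposited ones, so a ratio of 2 signals differs from the fold beside it. Where the dimmer array did not detect a gene, the fold is a bound on the background-corrected scale and is written "at least". That was so for 139 of the higher genes and 58 of the lower ones. A gene measured only through its brighter array can differ in 1 direction alone, so the counts of lists below describe those lists and are read beside these background shares.

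The arrays themselves were alike in depth of signal. The median signal was 149 with both factors and 134 with Control, and 44.4% and 42.7% of probes were detected. The only error that these arrays give is the spread between probes of the same gene, a standard deviation of 0.241 (log2 difference, 1925 genes). It says nothing of how separate cultures or virus batches would vary. There were 140 genes with several probes detected on both arrays and a mean difference of at least 2-fold. In all 140 every probe had the same sign. Choosing genes by that mean, beside a spread of 0.241, nearly fixed this outcome in advance.

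**Figure D1:**
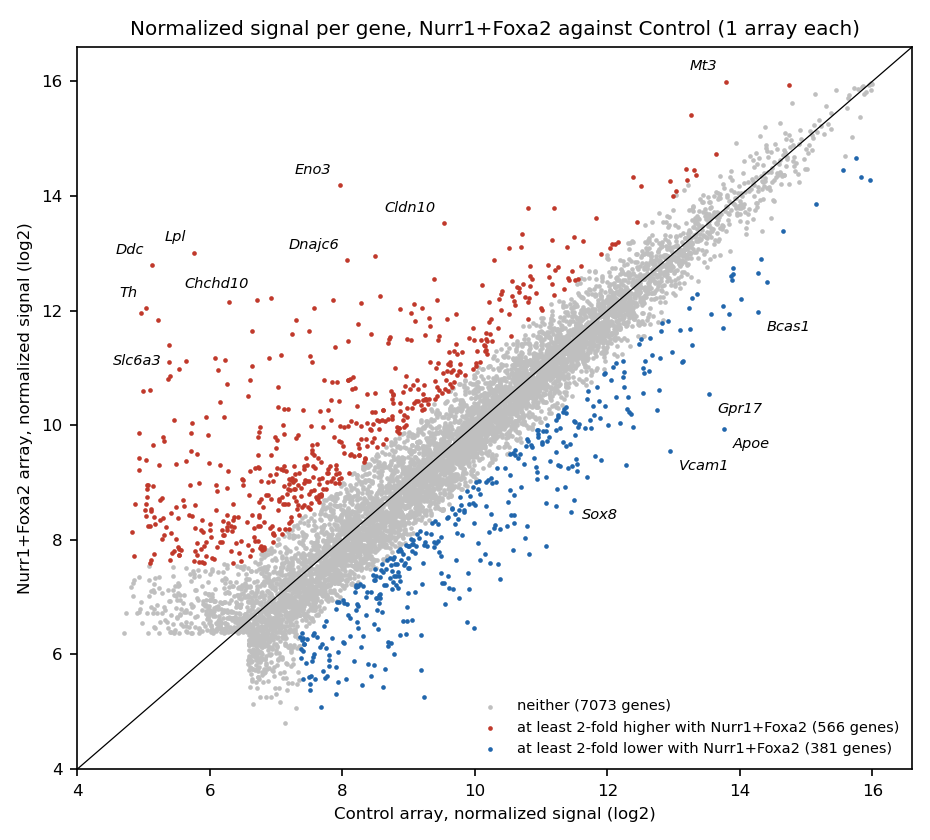
Normalized signal (log2) of 8020 measured genes, 1 point per gene, with the Nurr1+Foxa2 array on the vertical axis and the Control array on the horizontal axis. Points above the diagonal are higher with both factors. The 566 genes in red reach far from the diagonal at low Control signal (Lpl, Ddc, Th), while the 381 genes in blue stay closer to it, with Apoe the farthest.

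Genes of dopamine synthesis and uptake had some of the largest differences on the array. Th had a signal of 4469.7 with both factors and 101 with Control, where it was not detected, and was at least 44.1-fold higher. Ddc had 7392 with both factors and 106 with Control and was at least 74.2-fold higher. Gch1, encoding GTP cyclohydrolase, which starts the synthesis of tetrahydrobiopterin, had 2178 with both factors and 145 with Control and was at least 20.9-fold higher. None of these genes was detected with Control, so each fold is a lower bound, and its size rests on the background correction. Slc6a3 had 2023 with both factors and 117 with Control and was at least 19.3-fold higher. Without that correction the bounds were 39.7-fold for Ddc, 23.8-fold for Th, 11.5-fold for Gch1 and 10.7-fold for Slc6a3. Dnajc12, a co-chaperone of the aromatic amino acid hydroxylases, was detected on both arrays, with 1674 with both factors and 399.5 with Control, and was 4.19-fold higher. A second probe of Gch1 gave only at least 1.75-fold higher.

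The rest of the list did not move in the same way. The other enzymes of tetrahydrobiopterin synthesis and recycling were within 2-fold, with log2 differences of -0.61 for Pts, -0.51 for Spr, 0.20 for Qdpr and -0.076 for Pcbd2. Aldh2, one of the enzymes that clear dopamine aldehyde, had -0.28. Cyb561, which passes electrons from ascorbate into secretory vesicles, had a signal of 314 with both factors and 141 with Control and was at least 2.14-fold higher, though short of 2-fold without background correction. In all 6 of 11 measured genes of dopamine synthesis, transport and breakdown were at least 2-fold higher (54.5%) and none lower, with a median of 1.1. The shares over all measured genes were 7.06% and 4.75%. Of the higher genes only Dnajc12 was detected with Control. Th, Ddc, Gch1, Slc6a3 and Cyb561 were not, so these could differ in that direction only. Gchfr and Pcbd1 had a named probe and were not detected on either array. The list median is set by few genes, and with detection at a p-value below 0.05 it was 0.22.

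The single-factor arrays give these genes a different profile each. Th had signals of 4469.7 with both factors, 188 with Nurr1, 237 with Foxa2 and 101 with Control. Only the array with both factors was far above the others for Th and, at 2023, for Slc6a3, whose values were 171 with Nurr1, 114 with Foxa2 and 117 with Control. Ddc had 7392 with both factors, 368 with Nurr1, 5243 with Foxa2 and 106 with Control, so its signal was high wherever Foxa2 was given. Dnajc12 was brightest with Foxa2 alone, at 4681, beside 1674 with both factors, 367 with Nurr1 and 399.5 with Control.

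**Figure D2:**
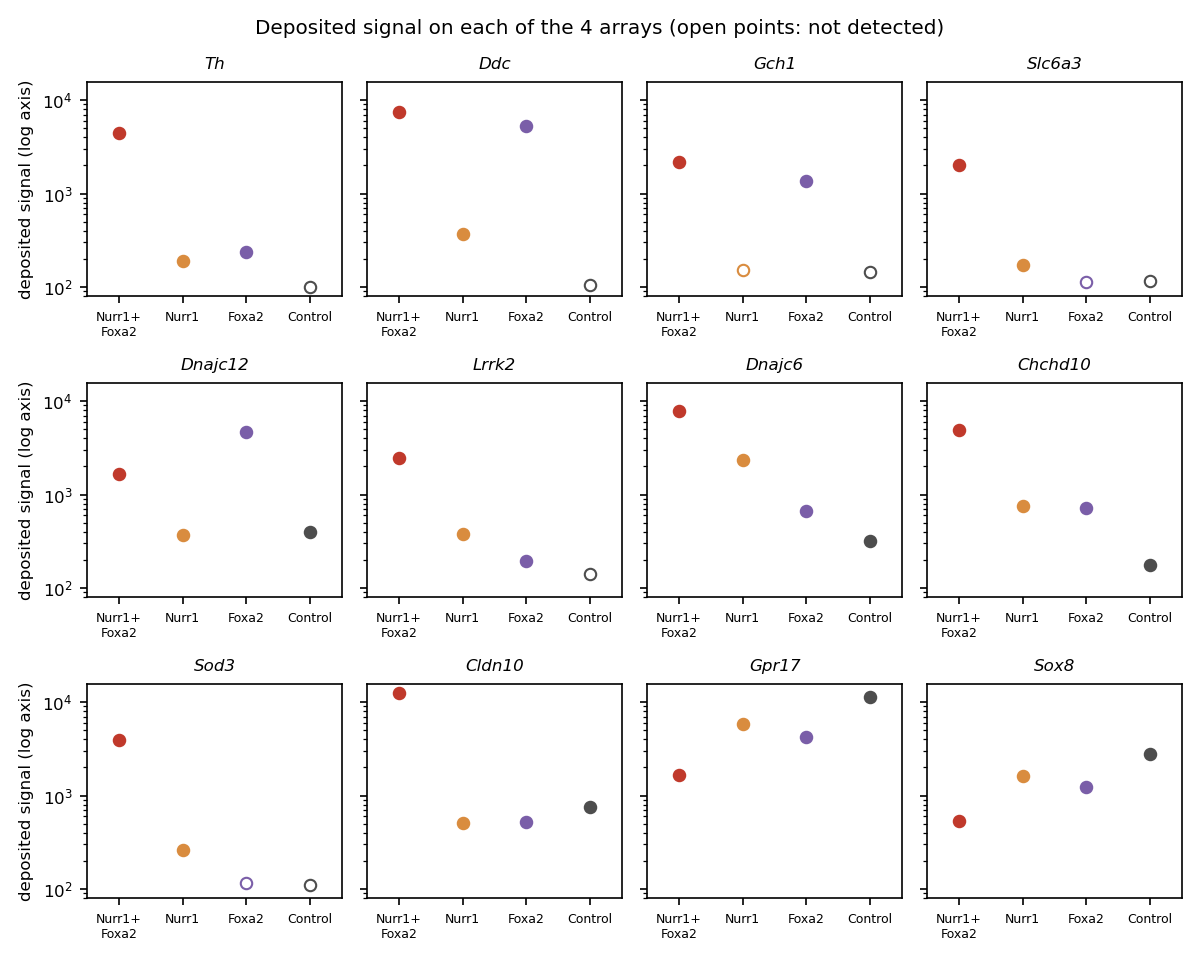
Deposited signal on a log axis for 12 genes on each of the 4 arrays, 1 point per array, in the order Nurr1+Foxa2, Nurr1, Foxa2, Control. Open points were not detected. Th, Slc6a3, Sod3 and Cldn10 are high on the Nurr1+Foxa2 array alone, Ddc and Gch1 also on the Foxa2 array, and Gpr17 and Sox8 are lowest on the Nurr1+Foxa2 array and highest on the Control array.

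Transcription factors of midbrain dopamine neurons followed less closely. Of 10 with a named probe, 7 were measured. Apart from Nr4a2, itself carried by the virus, Ebf1 (a signal of 355 with both factors and 133 with Control) was at least 2.56-fold higher and Ebf3 (781 with both factors and 364 with Control) was 2.05-fold higher. En2, a homeobox gene of the midbrain and hindbrain, was at least 2.97-fold lower, with 160.1 with both factors and 293 with Control. Without background correction Ebf1, Ebf3 and En2 were all short of 2-fold. En1, Lmx1b and Msx1 were not detected on either array. Of 11 measured genes of the floor plate and Hedgehog signalling 4 were higher and 1 lower, with a median of -0.27. Shh, the floor plate's signalling protein, had a signal of 1040.4 with both factors and 139 with Control and was at least 9.49-fold higher, although its second probe gave only at least 1.13-fold. The floor plate protease gene Corin was at least 3.86-fold higher, the sulfatase gene Sulf1 at least 4.02-fold and the midline guidance gene Slit2 13-fold higher. The Hedgehog receptor and target Ptch1, the transducer Smo and the release factor Disp1 had log2 differences of -0.32, -0.27 and 0.12. The Hedgehog co-receptor gene Boc had -0.90, the adhesion gene Alcam -0.53 and the cilium factor Foxj1 -0.53, and the adhesion gene Cntnap2 was 2.16-fold lower.

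Genes of the Parkinson disease list were mostly level. A place on this list does not mean an established inherited cause of the disease. Of 18 measured, 3 were at least 2-fold higher and 1 lower, with a median of -0.010. The 3 that were higher stood among the 13 largest folds of all measured genes, bounds included. Chchd10, encoding a protein of the mitochondrial intermembrane space, had a signal of 4964 with both factors and 175 with Control and was 44.4-fold higher. That fold is close to a bound, because the Control signal was near the lowest detected there (166). Dnajc6, encoding auxilin, which uncoats clathrin vesicles, had 7812 with both factors and 317 with Control and was 27.8-fold higher. Lrrk2, encoding a large kinase that phosphorylates Rab proteins, had 2478 with both factors and 143 with Control and was at least 24.1-fold higher. The single-factor arrays were intermediate for Lrrk2, with 377 for Nurr1 and 196 for Foxa2. The ubiquitous auxilin homologue Gak had a log2 difference of -0.069. Park7 (-0.036), Uchl1 (0.082), Vps35 (-0.21) and Atp13a2 (0.027) were level as well. Sncaip, encoding a partner of alpha-synuclein, was 2.1-fold lower (short of 2-fold without background correction), and the mitochondrial kinase gene Pink1, at -0.99, fell just short of 2-fold.

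Neuronal genes were higher in part. Pan-neuronal genes numbered 34 measured, with 7 at least 2-fold higher and 2 lower. Scg2, a granin of secretory granules, had a signal of 1891 with both factors and 292 with Control. Eno2, the neuronal enolase, had 2008 with both factors and 334 with Control. Stmn4, a stathmin that binds tubulin, was 3.44-fold higher, and the synaptic vesicle gene Syp 2.68-fold higher. General neuronal genes such as Dcx (-0.11), Uchl1 (0.082), Ina (0.020) and Crmp1 (0.14) had log2 differences near 0. Rbfox3, the gene of the neuronal nuclear protein NeuN, was 3.35-fold lower, with 704 with both factors and 1914 with Control. The brightest probe of Map2 gave a log2 difference of -0.47 and its dimmer probes -1.14 and -1.04.

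Among genes of synaptic vesicles and exocytosis 7 of 38 were higher and 1 lower, with a median of 0.38. Nsf, the ATPase that takes spent SNARE complexes apart, had a signal of 10499 with both factors and 2777 with Control and was 3.45-fold higher. Syt9, a calcium sensor of vesicle fusion, had 1017 with both factors and 176 with Control and was 8.3-fold higher. Rab3a (2.31-fold), Cadps (2.61-fold) and Sv2a (2.06-fold), all of vesicle priming or release, were higher too. The SNARE genes themselves were within 2-fold, at 0.31 for Vamp2 and 0.68 for Stx1a, and the active zone gene Rims3 was 2.04-fold lower. Sv2a and Rims3 fell short of 2-fold without background correction.

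Of 21 measured transmitter receptor genes 7 were higher and none lower. Gria3, Chrna4 and Glra2 were detected on both arrays, and the other 4 of the 7 were not detected with Control, so that these could differ in that direction only. The AMPA receptor subunit gene Gria3 had a signal of 1934 with both factors and 319.7 with Control and was 6.48-fold higher, while the bright subunit gene Gria2 had 11392 with both factors and 9352 with Control, a log2 difference of 0.17. Of nicotinic acetylcholine receptor subunits Chrna4 was 2.51-fold higher (signal 3092 with both factors and 1135 with Control), Chrnb1 at least 7.82-fold and Chrna5 at least 5.19-fold, while Chrnb2 had 0.75. The muscarinic receptor gene Chrm2 was at least 4.31-fold higher, the kainate receptor gene Grik1 at least 3.63-fold and the glycine receptor gene Glra2 3.04-fold. Drd2, the dopamine autoreceptor, had 182 with both factors and 142 with Control, just above and below the detection limits of these arrays, and no difference is given. With detection at a p-value below 0.05 the list median was 0.15, against 0.68 at 0.01.

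Of 22 measured potassium channel genes 1 was higher and 3 were lower, with Kcne1l (349 with both factors and 2091 with Control) 9.03-fold lower, and Kcnk13 was at least 3.24-fold higher. Of 18 sodium and calcium channel genes 3 were higher and 1 lower. The sodium channel subunit gene Scn3b was at least 4.09-fold and the calcium channel gene Cacna1a at least 3.17-fold higher, and the release channel gene Ryr3 at least 5.66-fold lower. Regulators of G protein signalling, which shorten receptor signals, were higher for Rgs9 (1922 with both factors and 318 with Control, 6.49-fold), Rgs6 (at least 6.18-fold) and Rgs4 (at least 3.12-fold), and lower for Rgs16 (2.78-fold). Among EF-hand calcium-binding genes Efhd1 (8.64-fold), Necab2 (6.03-fold) and S100a11 (5.49-fold) were higher and Ncald (3.54-fold) was lower.

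Of 51 measured genes of the neurite skeleton 10 were higher and 2 lower, with a median of 0.020. The dynein intermediate chain gene Dync1i1 had 840.2 with both factors and 188 with Control and was 5.86-fold higher, the kinesin genes Kif5c 3.42-fold and Kif5a 3.09-fold, and the spectraplakin gene Dst 3.11-fold. Other motor genes were within 2-fold, such as the kinesin genes Kif1a (-0.17), Kif3a (-0.59) and Kif21a (0.54) and the dynein light chain gene Dynll1 (-0.76). Kif5c was bright on both arrays, with 6586 with both factors and 1777 with Control. The neurofilament gene Nefm was 3.16-fold higher and Map1b 2.98-fold, although dimmer Map1b probes gave log2 differences down to 0.26. Among tubulins Tuba1a and Tubb2b had 0.12 and -0.014, Tubb4a was 3.53-fold lower and Tubb6 at least 3.39-fold higher.

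Progenitor genes were lower with both factors. The list of progenitors and radial glia held 27 measured genes, of which 15 (55.6%) were past 2-fold on the lower side and 3 on the higher side. Slc1a3, the glutamate transporter gene of radial glia, had a signal of 21127 with both factors and 60636 with Control. The Control signal lay near the highest on that array (64772), so the fold of Slc1a3 may be limited by the scale, which was not tested. Fabp7, the fatty acid binding protein of radial glia, had 271 with both factors and 780.3 with Control, and Sox2, a factor that maintains neural stem cells, 2243 with both factors and 4198 with Control. The folds were 2.85-fold lower for Slc1a3, 4.69-fold for Fabp7 and 2.11-fold for Sox2. With the mean of its detected probes Sox2 had a log2 difference of -0.89, short of 2-fold. Vim and Hes1, also progenitor genes, had log2 differences of 0.39 and 0.23. Lpar1, a receptor for lysophosphatidic acid, had 976 with both factors and 114 with Control and was at least 8.81-fold higher. The other higher members were Msi2 and Mt3, with log2 differences of 1.19 and 2.20.

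Of 24 measured Notch pathway genes 9 were lower and none higher, with a median of -0.76. They included receptors, a ligand, a modifier and targets. The receptor genes Notch1 (2.5-fold), Notch3 (2.21-fold) and Notch4 (2.15-fold) were lower, as were the ligand gene Dll1 (2.24-fold) and Mfng (6.76-fold), whose product adds sugars to the receptor. The targets Hes5 (1339.9 with both factors and 4915 with Control), Hey1 (2573 with both factors and 6285 with Control) and Nrarp (1372 with both factors and 6577 with Control) were 4.28-fold, 2.74-fold and 5.62-fold lower. Not every target was lower by that much, since Hes1 and Hey2 were within 2-fold, at 0.23 and -0.77. Ncstn and Psen2, parts of the protease that frees the Notch intracellular domain, were within 2-fold, at 0.65 and -0.26. Without background correction the list median was -0.45, and Notch3 and Notch4 were short of 2-fold. Of 23 measured basic helix-loop-helix and Id factors 4 were lower (17.4%) and none higher, beside 4.75% and 7.06% of all measured genes. Hes5 and Hey1 among these were already counted in the Notch list, so the lists do not stand apart. The others were the proneural gene Neurog2 (478 with both factors and 2674 with Control, 7.76-fold lower) and Olig2.

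Genes of the oligodendrocyte lineage were lower for 16 of 20 measured genes (80%) and higher for 1, with a median of -1.88. Transcription factors of the lineage were Olig2, with 752 with both factors and 2696 with Control, Nkx2-2, with 219 with both factors and 753 with Control, and Sox8, with 534 with both factors and 2765 with Control. They were 4.5-fold, 6.36-fold and 6.97-fold lower. The receptor gene Gpr17 of committed precursors had a signal of 1652 with both factors, 5803 with Nurr1, 4278 with Foxa2 and 11307 with Control. Bcas1, of newly forming oligodendrocytes, had 4319 with both factors and 20383 with Control and was 4.92-fold lower. Of enzymes of myelin galactolipids the list held 3 measured, with Gal3st1 6.2-fold, Fa2h at least 4.73-fold and Ugt8a 2.28-fold lower. Pdgfra, the growth factor receptor of oligodendrocyte precursors, was 2.71-fold lower and the precursor proteoglycan gene Cspg4 3.01-fold. Cldn11, the tight junction gene of myelin, went the other way (5427 with both factors and 1903 with Control, 2.61-fold higher), and Olig1 stayed within 2-fold at -0.88. Mbp was detected on the Nurr1+Foxa2 array alone, with 179 with both factors and 134 with Control, and has no difference. Without background correction the median was -1.49.

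Astrocyte genes were lower for 11 and higher for 3 of 23 measured. Apoe, the main lipid carrier of astrocytes, had the largest lower fold of all measured genes, with 1117 with both factors and 13478 with Control and 14.2-fold lower. The glutamate transporter gene Slc1a2 was 4.78-fold lower, the water channel gene Aqp4 3.48-fold, and Aldh1l1, a folate enzyme used as an astrocyte marker, 2.29-fold. Gja1, of astrocyte gap junctions, and Cst3 stayed level at 0.22 and 0.40. Ntsr2, a neurotensin receptor gene of astrocytes, was 6.76-fold higher, with 2980 with both factors and 443 with Control. The other higher members were Mt1 and Mt2, described below, with log2 differences of 1.18 and 2.87. The summed signal of the 4 astrocyte markers with a named probe, Aqp4, Slc1a2, Aldh1l1 and Gja1, was 18569 with both factors and 17693 with Control, carried by Gja1.

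**Figure D3:**
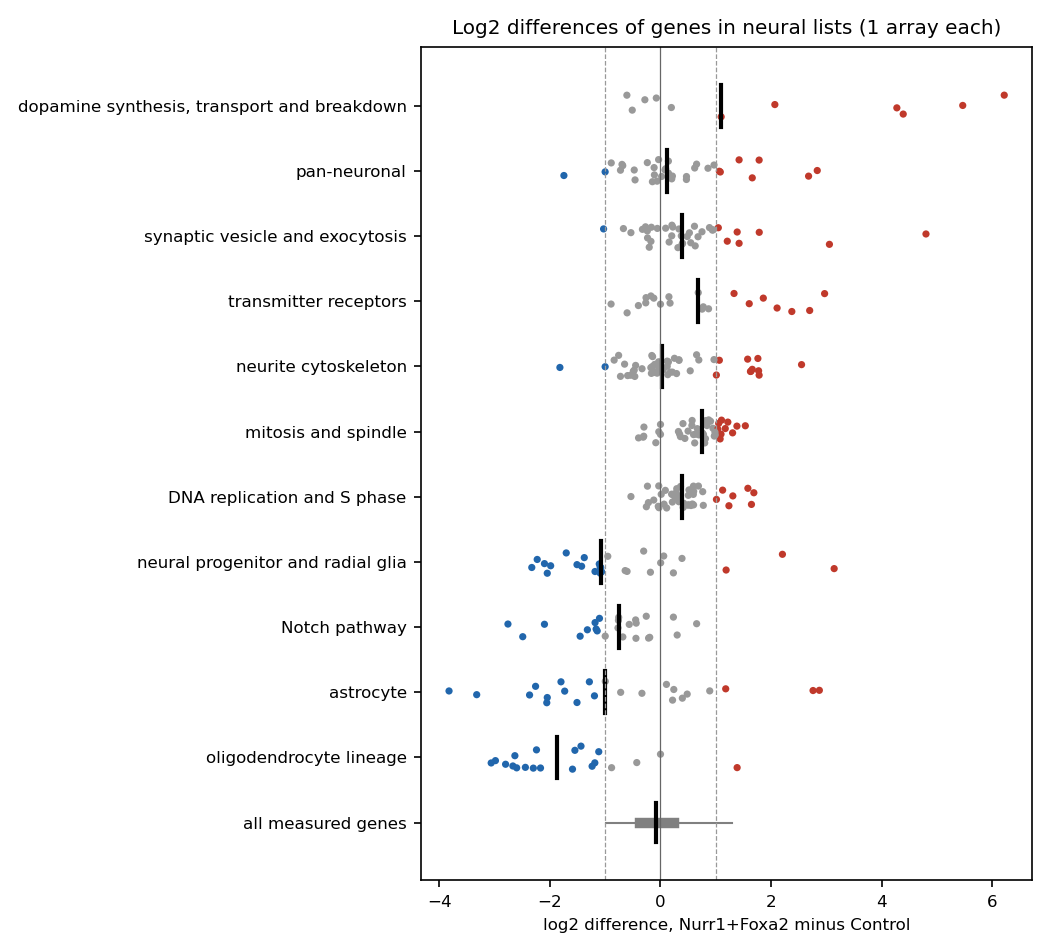
Log2 difference, Nurr1+Foxa2 minus Control, of each measured gene in 11 neural lists, 1 point per gene, with the list median as a black bar. Red and blue points are at least 2-fold higher and lower, and dashed lines mark 2-fold. The bottom row gives all 8020 measured genes, with quartiles as the thick bar and the 5 and 95 percentiles as the thin line. The oligodendrocyte points lie almost all left of 0 (median -1.88) and the spindle genes mostly right of it (median 0.76).

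Solute carriers went both ways, with 13 higher (8.18%) and 15 lower (9.43%) of 159 measured, beside 7.06% and 4.75% of all measured genes. The neuronal glutamate transporter gene Slc1a1 had 1394 with both factors and 4849 with Control and was 4.07-fold lower. Slc6a11, a GABA transporter, was 6.59-fold lower, Slc6a9, a glycine transporter, 4.35-fold, and Slc38a3, a glutamine transporter, 6.87-fold lower. Other transporters of transmitters or amino acids were within 2-fold, such as Slc17a6 (0.22), Slc32a1 (0.080), Slc6a17 (0.50) and Slc6a15 (0.68). The urea transporter gene Slc14a2 was 5.08-fold lower and the dicarboxylate transporter gene Slc13a3 at least 3.36-fold. Slc2a13, a myo-inositol transporter, had 10798 with both factors and 1647 with Control and was 6.13-fold higher, and Slc35f3, linked to thiamine transport, was 20.4-fold higher. Slc27a3, an acyl-CoA synthetase of the fatty acid transport family, was 7.49-fold higher and the peroxisomal carrier gene Slc25a17 3.6-fold.

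Cell division genes were higher as a group, and by small amounts. Of 43 measured genes of mitosis and the spindle 10 were at least 2-fold higher and none lower, and 35 lay above 0, with a median of 0.76. The topoisomerase gene Top2a had 1118 with both factors and 414 with Control and was 2.61-fold higher, the kinetochore gene Spc25 2.9-fold and Cdk1, the kinase that starts mitosis, 2.11-fold. Cdk1 was short of 2-fold without background correction. Among 46 replication genes, whose median was 0.39, 7 were higher, such as E2f2 (3.22-fold), Mcm10 (2.99-fold) and Uhrf1 (2.48-fold). Of 23 cyclins, their kinases and inhibitors 4 were higher and none lower. Cdkn1a, the inhibitor p21, had 4954 with both factors and 701 with Control and was 6.76-fold higher, and Rb1 had 6054 with both factors and 1664 with Control and was 3.33-fold higher. The antiproliferative gene Tob1 was 3.27-fold higher. Other inhibitors were within 2-fold, with Cdkn1b at 0.43, Cdkn2d at 0.49, Cdkn2c at -0.38 and Cdkn1c at -0.66. Ccnd1, the cyclin of the first gap phase, was 4.67-fold higher, with 4182 with both factors and 854 with Control, while Ccnd2 and Ccnd3 stayed at 0.25 and -0.25.

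Death genes were largely level. Of 41 measured genes of apoptosis and p53 targets 4 were higher and 1 lower. The death receptor gene Fas was 3.08-fold higher, with 598 with both factors and 215 with Control, and the BH3-only gene Pmaip1 at least 3.02-fold. Bbc3, another BH3-only gene, had 0.93. Casp9, Bad and Apaf1 had -0.12, 0.13 and 0.14, and the stress gene Gadd45g was 2.4-fold lower.

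Genes fed by growth factor signals were higher more often than lower, 9 and 2 of 34. Klf5, a zinc finger factor, had 3454 with both factors and 170.1 with Control and was 32.2-fold higher, close to a bound because its Control signal was near the lowest detected there (166). Ccn2, a matricellular protein, was 17.8-fold higher. The phosphatases Dusp4 and Dusp6, which switch off the kinase ERK, were at least 11-fold and 4.1-fold higher, and Egr1, with 5521 with both factors and 1328 with Control, 3.83-fold higher. Jun and Myc stayed at -0.77 and -0.60, and Ets1 was 3.2-fold lower.

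Of 28 measured trophic factors and receptors 7 were higher and 3 lower. Angpt2, an angiopoietin of blood vessel growth, had 3923 with both factors and 217 with Control, 23.4-fold higher by its brightest probe and at least 3.08-fold by the other. Fgf10 had 1721 with both factors and 104 with Control and was at least 16.3-fold higher. Vegfa was 7.56-fold higher, with 4198 with both factors and 552 with Control, Bdnf 6.04-fold and the heparin-binding factor Mdk 2.15-fold. Other ligand genes were within 2-fold, such as Ptn (-0.43), Fgf1 (-0.32), Vegfb (0.015), Pdgfa (0.080) and Vegfc (0.75). Ret, the signalling receptor for the dopamine neuron factor GDNF, had 482 with both factors, 969 with Nurr1, 116 with Foxa2 and 101 with Control, and was at least 3.83-fold higher. The neurotrophin receptor gene Ntrk2, with 4572 with both factors and 13418 with Control, was 3.19-fold lower by its brightest probe. Ntrk3, with 762 with both factors and 1683 with Control, was 2.69-fold lower. With the mean of their detected probes Ntrk2 and Mdk had log2 differences of -0.89 and 0.82, both short of 2-fold.

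In the TGF-beta and BMP pathway 8 of 36 genes were higher and 3 lower. The receptor gene Tgfbr2 had 1792 with both factors and 196 with Control and was 12.5-fold higher by 1 probe, while its second, dimmer probe gave no difference. The ligand gene Tgfb2 was 5.62-fold higher, the secreted binding protein gene Fstl1 8.99-fold (signal 6407 with both factors and 684 with Control) and the BMP antagonist gene Chrd 3.72-fold. Bmp4 was 2.17-fold lower (short of 2-fold without background correction) and the latency protein gene Ltbp1 3.2-fold. Smad1, Smad2, Smad4 and Smad5, which carry the signal, were within 2-fold, at -0.15, 0.024, -0.35 and -0.015. Wnt genes were lower for 6 and higher for 4 of 33. The ligand genes Wnt7a and Wnt7b were 2.08-fold and 2.21-fold lower, the secreted modulator Sfrp1 3.69-fold lower, with 2901 with both factors and 9682 with Control, and the receptor Fzd2 2.58-fold lower. Fzd6, a further Frizzled receptor, was 6.74-fold higher and Wls, which escorts Wnt proteins to the surface, 4.84-fold higher, with 3942 with both factors and 771 with Control. The target Axin2 had -0.32.

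Axon guidance genes were higher for 9 and lower for 6 of 46. Slit2, a repellent of the midline, had 2548 with both factors and 237 with Control, and its receptor gene Robo1 2597 with both factors and 864 with Control, so ligand and receptor were both higher (13-fold and 2.82-fold). Sema5a had 9179.8 with both factors and 1430.2 with Control and was 6.0-fold higher, and the netrin receptor gene Unc5c was 2.62-fold higher. The repulsive guidance molecule gene Rgmb was 5.91-fold higher and the netrin gene Ntn4 5.85-fold, while their relatives Rgma and Ntn3 had log2 differences of -0.048 and 0.39. Sema4a was 4.31-fold lower, Draxin, of forebrain commissures, 3.39-fold, and the ephrin receptor gene Epha3 2.48-fold.

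Adhesion and junction genes had members far out on both sides. Cldn10, a tight junction claudin, had 12452 with both factors, 506 with Nurr1, 517 with Foxa2 and 747 with Control. Its 3 probes gave 3.75, 4.08 and 4.0 on the log2 scale. Cldn1 was at least 6.7-fold higher and Cldn23 at least 5.35-fold, and Cldn12 stayed at 0.11. Pkp2, a desmosomal plakophilin, was at least 18.7-fold higher, with 1957 with both factors and 116 with Control. The laminin receptor gene Itga3 was at least 9.76-fold higher. Vcam1 had 881 with both factors and 7730.2 with Control and was 10.5-fold lower, and the neuronal gap junction gene Gjd2 was 3.69-fold lower. Of 46 cadherin and junction genes 7 were higher and 5 lower, the lower ones being Gjd2 and 4 protocadherins, Pcdhb7, Pcdhb8, Pcdhb10 and Pcdhgc3. These protocadherins were short of 2-fold without background correction, and probes of such close relatives may not tell them apart, which was not tested.

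Of 45 measured matrix glycoproteins and proteoglycans 8 were higher and 11 lower, and of 13 collagens 2 and 2. The proteoglycan gene Bcan had 6177 with both factors and 22014 with Control and was 3.75-fold lower, Matn4 4.08-fold, Smoc1 3.7-fold and Cspg5 3.14-fold. Of basement membrane genes the collagen gene Col4a1 was at least 6.65-fold higher, the nidogen gene Nid2 at least 2.48-fold and the laminin gene Lamc1 2.12-fold, while Col4a2 (0.51), Nid1 (0.45) and Lamb2 (-0.017) were within 2-fold. The F-spondin relative Spon2 had 4800.4 with both factors and 152 with Control and was at least 47.4-fold higher, and the glypican gene Gpc3 19.9-fold higher, with 4912 with both factors and 282 with Control. The relatives Gpc1, Gpc2 and Gpc4 stayed at -0.86, 0.29 and 0.25. Bace2, an aspartyl protease, was 19.4-fold higher by its brighter probe and at least 1.94-fold by the other, while its homologue Bace1 had 0.011. The cathepsin gene Ctsh had 2419.6 with both factors, 113 with Nurr1, 149 with Foxa2 and 127 with Control, and was detected on the first of these alone (at least 23.4-fold higher). Ctsb, Ctsd and Ctsz were within 2-fold and Ctsl was 2.1-fold lower. Without background correction Nid2 and Ctsl were short of 2-fold.

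Of 33 measured genes of glycolysis and pyruvate metabolism 6 were higher (18.2%) and 2 lower, with a median of 0.095. Eno3, the muscle enolase, had 19418 with both factors and 297 with Control and was 74.7-fold higher, and Eno2 was 6.4-fold higher. Pygl, the liver glycogen phosphorylase, had 1845 with both factors and 151 with Control and was at least 17.7-fold higher, while the brain form Pygb was 2.1-fold lower. The aldolase gene Aldoc, the brain form, was 4.13-fold lower, with 3592 with both factors and 13385 with Control, and Aldoa had 0.66. Among other glycolytic enzymes Gapdh (0.38), Pkm (0.057) and Pgk1 (-0.066) were within 2-fold, while Tpi1 and Pfkp were 2.23-fold and 2.24-fold higher, Pfkp short of 2-fold without background correction. With the mean of their detected probes Tpi1 and Pfkp had log2 differences of 0.76 and 0.48, both short of 2-fold. Carbonic anhydrases, which turn carbon dioxide into bicarbonate, also differed by member. Car14 had 5099 with both factors and 188 with Control and was 39.3-fold higher, Car2 had 3052 with both factors and 318 with Control and was 10.5-fold higher, and Car11 had -0.28.

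Lipid genes were higher and lower in equal number, 10 and 10 of 66 (15.2% each), beside 7.06% and 4.75% of all measured genes. Lpl, lipoprotein lipase, had the largest fold among named genes, itself a bound, with 8678 with both factors and 132 with Control and at least 86.4-fold higher. Gpat3, an acyltransferase of glycerolipid synthesis outside the list, had 2901 with both factors and 117 with Control and was at least 28.2-fold higher, the acyltransferase gene Agpat4 3.72-fold and the diacylglycerol kinase gene Dgkk at least 22.9-fold, while Agpat1 (0.57), Dgat1 (-0.080) and Gpam (-0.76) were within 2-fold. Of carriers and desaturases Apoe and Fabp7 were lower, as above, as were Fabp5 (at least 5.36-fold) and Fads2 (2.91-fold), while Fabp3 (0.45), Fads1 (-0.52) and Scd2 (-0.20) were within 2-fold. Cholesterol synthesis was level, with 2 of 25 genes higher, Ebp (short of 2-fold without background correction) and the lipoprotein receptor gene Vldlr, none lower, and a log2 difference of -0.16 for Sqle.

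Metallothioneins, small proteins that bind zinc and copper, were higher for all 3 members measured. Mt3 had 64378 with both factors, 25958 with Nurr1, 15417 with Foxa2 and 13882 with Control. That was the highest signal of any probe on the Nurr1+Foxa2 array. Mt1 had 62971 with both factors and 28504 with Control and Mt2 1385 with both factors and 227 with Control, and the folds were 4.61-fold for Mt3, 2.26-fold for Mt1 and 7.32-fold for Mt2. The signals of Mt3 and Mt1 with both factors lay close to the highest on either array (64378 with both factors and 64772 with Control), so these folds may be limited by the top of the scale, which was not tested. Slc31a1, the copper importer, had 10144 with both factors and 2234 with Control and was 4.16-fold higher, and the copper pump gene Atp7a 4.21-fold. The manganese exporter gene Slc30a10 was 6.86-fold lower. The iron genes Tfrc, Fth1 and Slc11a2 had log2 differences of 0.27, -0.034 and 0.17.

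Antioxidant genes were otherwise quiet. Sod3, the secreted superoxide dismutase, had 3919 with both factors, 262 with Nurr1, 116 with Foxa2 and 110.1 with Control, and was at least 38.4-fold higher. Sod1 and Sod2 stayed at 0.39 and -0.21. Gpx7, of the endoplasmic reticulum, was 3.85-fold higher and the glutathione transferase gene Gstm1, with 732 with both factors and 2600.3 with Control, 4.47-fold lower. Of 47 measured genes 3 were higher and 2 lower, close to the background shares. In the list of endoplasmic reticulum stress and folding 4 were higher and 2 lower of 44, also close to the background. The higher ones included the oxidase gene Ero1b, 8.35-fold higher (1925 with both factors and 263 with Control), the disulfide isomerase gene Pdia5 4.6-fold and the prolyl isomerase gene Fkbp11 at least 4.98-fold higher. The stress factors Ddit3, Atf4 and Xbp1 were within 2-fold, at -0.21, 0.40 and 0.58. Phgdh and Psat1, of serine synthesis, were 3.96-fold and 2.09-fold lower, with 1661 with both factors and 5734 with Control for Phgdh. The co-chaperone gene Bag3 was 3.87-fold higher, with 7343 with both factors and 1786 with Control, while the heat shock genes Hspa8 and Hspd1 had 0.049 and 0.24.

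Of 30 measured genes of interferon response and antigen presentation 6 were higher and 2 lower. B2m, the light chain of class I molecules, had 5959.9 with both factors and 1088 with Control and was 5.06-fold higher. The class I gene H2-T23 was 6.17-fold higher and the peptide transporter gene Tap2 3.03-fold. Ifitm3 and Ifitm2, which hinder virus entry, were 11.4-fold and 5.05-fold higher, with 3735 with both factors and 348 with Control for Ifitm3. The interferon-induced genes Rsad2 and Gbp3 were at least 2.97-fold and at least 2.69-fold lower, Irf9 had 0.28, and Isg15 and Ifit3 were not detected on either array. Rsad2 and Gbp3 were short of 2-fold without background correction.

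Several of the 30 largest differences in each direction lie outside the groups above. Palmd, encoding palmdelphin, had 2437 with both factors and 149 with Control and was at least 23.6-fold higher. Mia, a secreted protein first found in melanoma, had 3414 with both factors and 236 with Control and was 17.7-fold higher. Tyrp1, an enzyme of melanin synthesis, had 4219.9 with both factors, 5267 with Nurr1, 94.7 with Foxa2 and 97.8 with Control. The melanosome genes Dct and Pmel were at least 3.51-fold and at least 2.45-fold lower, Pmel short of 2-fold without background correction. Aard (22.1-fold), Arhgap29 (at least 21-fold), Diras2 (21-fold) and Cd59a (18.2-fold) were also higher. On the lower side stood Brinp3 (11.5-fold), Pdzph1 (8.37-fold), Tmem100 (8.34-fold), the small GTPase gene Rnd2 (7.83-fold), Cmtm5 (6.16-fold) and the sulfotransferase gene Chst3 (5.82-fold).

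The basic machinery of the cell differed little. No measured gene of respiratory complex I (31 genes), the mitochondrial ribosome (70) or the proteasome (37) was 2-fold higher or lower. Their medians were 0.16, -0.13 and -0.10. Among 53 genes of the cytosolic ribosome only Rplp0 was past 2-fold (2.36-fold lower). Cox6b2, an isoform of complex IV known from testis, was the exception among 33 genes of complexes II to IV, 4.47-fold higher with 721 with both factors and 198 with Control. Of 120 chromatin genes the nucleosome remodeller Smarca1 (3082 with both factors and 552 with Control, 5.49-fold) and Hmgn5 (2.6-fold) were higher and Sirt2 (2.92-fold) and Kdm2b (at least 2.29-fold, short of 2-fold without background correction) lower. Lysosome and autophagy genes numbered 2 higher and 1 lower of 57.

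**Figure D4:**
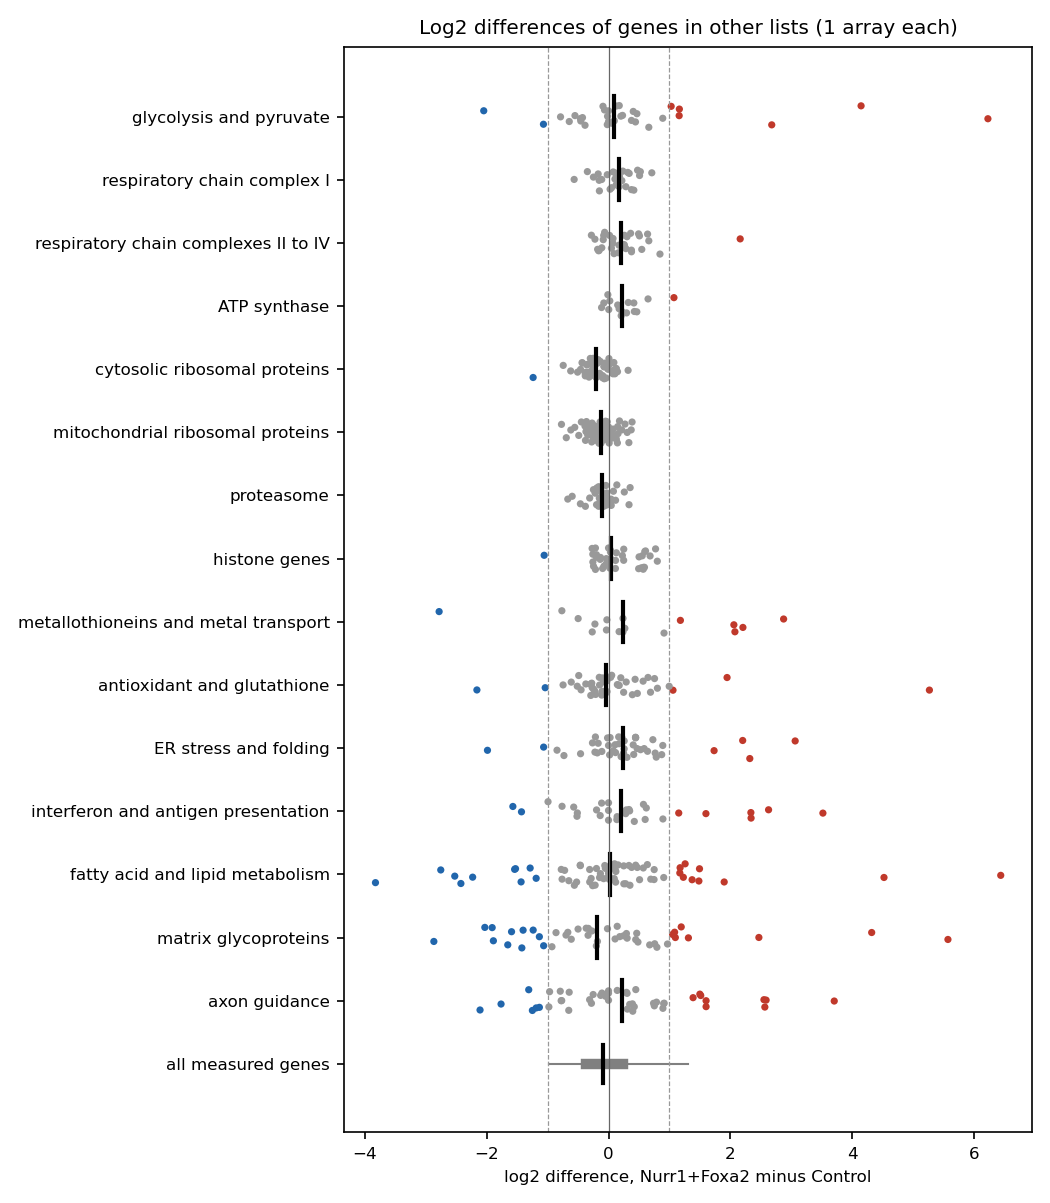
Log2 difference, Nurr1+Foxa2 minus Control, of each measured gene in 15 further lists, drawn as for the neural lists. Genes of the respiratory chain, the ribosomes and the proteasome crowd around 0 (medians between -0.20 and 0.21). Glycolysis, lipid, matrix and guidance lists hold single genes far to either side, such as Eno3 at 6.22 and Apoe at -3.82.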

How the data were processed

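The deposited scanner table holds, per the file headers, a mean signal (intensity, linear, not normalized between arrays) and a detection p-value for each probe and array. In the authors' deposited value table log2 values rank probes as the signals do. The scanner software is not given in the sources used here. Signals were background-corrected from the detection p-values, given an offset of 16 and quantile normalized over all 4 arrays with neqc of limma 3.58.1 in R 4.3.3. Further steps used Python 3.11.15 with pandas 2.3.3, numpy 2.4.6 and matplotlib 3.10.9. The pipeline was tested on simulated data. There, every gene given a difference had a single probe and a Control signal well above background. Bounds for genes not detected with Control, and the choice among probes of a differing gene, were not tested.

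Where the dimmer array did not detect a probe, its value was set no lower than the lowest normalized signal of that array's detected probes. The brightest measured probe stood for a gene. Where this left nothing above 1-fold, 119 genes, no difference is given and 0 entered list medians. Symbols came from the platform annotation, and 12480 of 12484 probes matched the RefSeq table of GRCm38.p6. The number of arrays limits the precision.

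The members and the 64 gene lists, which overlap, were chosen with earlier results of these data known, and 3 lists matched by name pattern were trimmed of unrelated names. Named genes are the 30 largest differences in each direction, up to 8 members a list past 2-fold in each direction, and members that define a step of their pathway. Alternatives covered background, normalization, detection, probe rule, offset and fold.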

Additional observations from a re-analysis of the deposited data

Results flagged for a closer look

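Probes without a gene symbol also carried signal. Of 846 such probes detected on at least 1 of the 2 arrays, 96 were at least 2-fold higher with Nurr1+Foxa2 than with Control (11.3%) and 28 at least 2-fold lower (3.31%). They were taken up here because they lie outside every gene list above. For 58 of the 96 the Control array showed no detected signal. The largest of them had a signal of 11659 with both factors and 129.8 with Control, at least 117-fold higher, above the bound of any named gene. What these probes measure was not analysed here.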

How the results depend on the processing

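More genes were higher than lower under every alternative run. A 3-fold limit left 300 higher and 148 lower genes. Without background correction there were 449 and 266, and scaling to equal medians of probes detected on both arrays, an alternative chosen after seeing the data, gave 619 and 352. The medians of 9 of 61 lists with at least 5 measured genes moved by more than the spread between probes under some alternative, and none of those past 0.5 in size changed sign. Of 239 genes named above with 2-fold differences, 214 stayed past it without background correction and as many with the authors' values, and at least 229 under each other alternative. Those that fell short in the first 2 settings were Bmp4, Cdk1, Ctsl, Cyb561, Ebf1, Ebf3, Ebp, En2, Gbp3, Kdm2b, Nid2, Notch3, Notch4, Pcdhb10, Pcdhb7, Pcdhb8, Pcdhgc3, Pfkp, Pmel, Rarb, Rims3, Rsad2, Sncaip, Stmn2 and Sv2a. Pfkp and Sv2a of this list, and Mcm10, Mdk, Ntrk2, Sox2 and Tpi1 outside it, fell short with the mean of a gene's detected probes. Mt1 fell short with either way of scaling to equal medians.

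The dopamine median was 1.1 as reported, 0.68 with background left in, 0.69 from the authors' values, 0.22 with detection at 0.05 and 1.65 with no filter or floor. The Notch median under the same settings was -0.45, -0.43, -1.0 and -1.05. The oligodendrocyte median was -1.49 with background left in and -1.48 from the authors' values, and the pigment cell median -0.77 and -0.75. With detection at 0.05 the medians were -0.75 for pigment cells, 0.32 for midbrain transcription factors, 0.15 for transmitter receptors, 0.18 for meninges and 0.40 for carbonic anhydrases. With the mean of a gene's probes they were -1.36 for pigment cells, 0.40 for transmitter receptors and 0.37 for carbonic anhydrases. With no filter or floor they were 0.73 for collagens and 0.59 for meninges. The median as reported was -1.11 for pigment cells, 0.65 for carbonic anhydrases, 0.29 for collagens and -0.058 for meninges, which thus changed sign. The cause was not tested.

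No paired analysis was possible because each group has 1 array. Leaving out a replicate was not possible for the same reason. Folds against a signal near the lowest detected on an array (179 with both factors, 166 with Control) are little firmer than bounds.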

Other observations

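Genes of contractile fibres and actin crosslinking were higher for 5 and lower for 1 of 24, led by the LIM genes Csrp2 (3204 with both factors and 453 with Control, 7.08-fold higher), Pdlim7 (4.35-fold) and Pdlim4 (2.81-fold), while Csrp1 was 2.66-fold lower. Among nuclear receptors and retinoid enzymes 6 of 32 were higher. Besides Nr4a2 they included the retinoic acid receptor gene Rarb (at least 2.37-fold, short of 2-fold without background correction) and the retinol dehydrogenase gene Rdh5 (1927 with both factors and 588 with Control, 3.15-fold), and Nr2e1, of neural stem cells, was 2.6-fold lower. Of the homeobox, Sox and forkhead list 4 were higher and 7 lower of 49. Pou3f1, of the POU family, had 1273 with both factors and 149 with Control and was at least 11.8-fold higher, and Foxp1 at least 5.2-fold higher, while Sox3 was at least 5.02-fold and Irx3 3.86-fold lower. Genes of GABAergic and ventral forebrain cells were lower for 3 of 11 and higher for none, with Npy (256 with both factors and 748 with Control) 4.88-fold lower and the GABA synthesis gene Gad1 at 0.27.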
